A study of Mus musculus with 2 samples.

Results

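A group of 10 genes of cytosolic nucleic acid sensing were followed through the cell types of mouse bone marrow: the DNA sensors Cgas, Aim2 and Zbp1, the DNA exonuclease Trex1, the RNA sensors Ddx58 and Ifih1, the adaptor Mavs, the kinase Tbk1 and the transcription factors Irf3 and Irf7. They were taken by symbol, out of 32285 genes in the count tables, and each was counted in single cells of 2 libraries. The DKO library came from marrow of genotype VavCre:Ddx41 fl/fl, cGAS-/-, and the control library, labelled WT, from what the study's methods describe as Ddx41 fl/fl littermates that lack VavCre and have wild-type cGas. Mice were 2 months old, marrow was flushed from the femur, and the number of mice in a library is not given in the sources used here. Ddx41, a DEAD-box helicase, is deleted by a Cre that the Vav promoter drives in blood-forming cells, whereas the cGAS-/- mutation is carried by all cells of the DKO mouse. The comparison asks how the sensing genes stand in marrow that lacks both, beside marrow that has both, and the effects of the 2 deletions cannot be told apart. Each genotype had 1 library, so that no difference between them could be tested.

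Cells read misplaced nucleic acid through a few routes. The enzyme encoded by Cgas binds double-stranded DNA in the cytosol and makes cyclic GMP-AMP, which acts through STING to bring the kinase TBK1 to the transcription factor IRF3. The helicases encoded by Ddx58 (RIG-I) and Ifih1 (MDA5) read double-stranded RNA and signal through MAVS on mitochondria to the same kinase. IRF3 and IRF7 then switch on type I interferon, and interferon in turn raises many of the sensors, among them Zbp1, Ddx58, Ifih1 and above all Irf7. AIM2 also binds DNA but builds an inflammasome with ASC, the product of Pycard, ZBP1 binds left-handed nucleic acid and passes the signal to RIPK3, and TREX1 degrades cytosolic DNA.

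After filtering, 18622 control cells with 118665589 UMIs (unique molecular identifiers, counts of captured RNA molecules) and 13729 DKO cells with 114830668 UMIs were kept, at medians of 4874.5 and 6904 UMIs per cell. Hemoglobin genes took 28.5% of control and 36.3% of DKO UMIs. Clustering gave 13 named classes that held 50 or more cells of each library and 1 large cluster, led by Il1b, Pla2g7 and Csf3r, that met no class by its markers and is called the Il1b-led cluster here. Each class had 8 to 11 markers, and all were raised in both libraries except 1 of 10 for cKit+ progenitor-like cells in the control library. Clusters were named by these same markers, so this count describes the classes and does not test their names. The basophil or mast-like class, of 403 control and 162 DKO cells, was led by Prss34 and Mcpt8 but also by Angpt1 and Meis1. With finer clusters (Leiden resolution 2.0) it held 104 and 63 cells. A cluster of 300 and 103 cells led by Angpt1, Meis1 and Mecom then met no class. The libraries shared 75 cell barcodes. Levels are given as CPM (counts per 1000000), a gene's UMIs relative to all UMIs of the class, and differences as log2 of the DKO level divided by the control level, 1 UMI being added to each count. Ranges in parentheses are 95% intervals that cover counting error only, not the spread between mice. A gene was compared where both libraries together held at least 50 of its UMIs, and called higher or lower past 1.5-fold.

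Ddx41, the conditional target, stood at 20.2 CPM in control and 8.003 CPM in DKO cells, a log2 ratio of -1.34 (-1.45 to -1.23). For Cgas the count tables check nothing. The reads come from the 3' end of transcripts, the exons removed in the cGAS-/- allele are not given in the sources used here, and 832 Cgas UMIs were counted in DKO cells. What transcripts they came from was not tested.

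Over all kept cells, 4 of the 9 members with enough UMIs were lower in DKO and 0 were higher, where 14.6% of the 15479 genes compared were lower and 3.8% higher. Among the 4 is Cgas, itself a target of the DKO. Irf7 went from 24.9 to 8.87 CPM, a log2 ratio of -1.49 (-1.60 to -1.39). Zbp1 went from 14.9 to 5.45 CPM, at -1.45 (-1.59 to -1.32). These were the furthest of the members below the median of all genes, which was -0.14. Cgas, at 13.6 and 7.25 CPM, had a ratio of -0.91 (-1.03 to -0.79), and Ifih1, at 17.7 and 11.8 CPM, one of -0.59 (-0.69 to -0.49), just past the limit. With hemoglobin genes left out of the totals, which moved the median of all genes by 0.17, Ifih1 stood at -0.42 and was no longer past it. With the mix of classes held equal, Cgas stood at -0.44 and Ifih1 at -0.53, both within the limit. Ifih1 was also just within it, at -0.583, with a mitochondrial limit of 10%. Ddx58 at -0.35, Irf3 at -0.16 (0.0076 without hemoglobin genes), Tbk1 at 0.03, Mavs at 0.18 and Aim2 at 0.38 stayed within 1.5-fold. A ratio over all cells also moves with the mix of cell types, so the classes were examined 1 by 1.

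Across the 14 classes, 95 pairs of a member and a class held enough UMIs, of which 28 were lower and 4 higher in DKO. Cgas, itself a target of the DKO, gave 3 of the 28 lower pairs, in early erythroid-like, B cell-like and T or NK cell-like cells. Early erythroid-like cells had 4 of 8 members lower and 1 higher, beside 8.73% and 2.71% of all genes. Of the 4 lower, Ifih1 was within the limit without hemoglobin genes in the totals. Of the 5 members compared in late erythroid-like cells 2 were lower and 1 higher, beside 53.2% and 1.94%. A value just past the limit there sits near the middle of all genes, whereas Irf7, at -1.63, lay below their 10th percentile of -1.40. Without hemoglobin genes in the totals 37.9% of all genes were lower. T or NK cell-like cells had 4 of 8 lower, beside 6.24%, and 0 higher, beside 11.6%. Of these 4, Cgas was within the limit with doublets kept in (-0.56) and Ifih1 with only barcodes above the order-of-magnitude threshold (-0.09). In 3 further classes 3 members were lower and 0 higher: of 7 in the Il1b-led cluster, beside 8.96% and 7.57%, of 8 in conventional dendritic-like cells, beside 7.65% and 13.5%, and of 9 in B cell-like cells, beside 3.79% and 4.46%. Zbp1 and Irf7 alone were lower in cKit+ progenitor-like cells (2 of 9, beside 3.01% lower and 9.41% higher), neutrophil-like cells (2 of 8, beside 5.21% and 7.68%) and monocyte-like cells (2 of 9, beside 3.97% and 6.82%). Irf7 was the 1 lower member in macrophage-like cells (of 7, beside 6.46% lower, with 1 higher beside 7.7%), plasmacytoid dendritic-like cells (of 5, beside 5.88%, with 0 higher beside 14.6%) and basophil or mast-like cells (of 8, beside 4.88%, with 0 higher beside 4.69%). Megakaryocyte-like cells had 1 member compared, which was higher (11.4% of genes lower and 14.4% higher), and stromal-like cells had 3, none past the limit (4.6% lower and 25.1% higher).

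**Figure D1:**
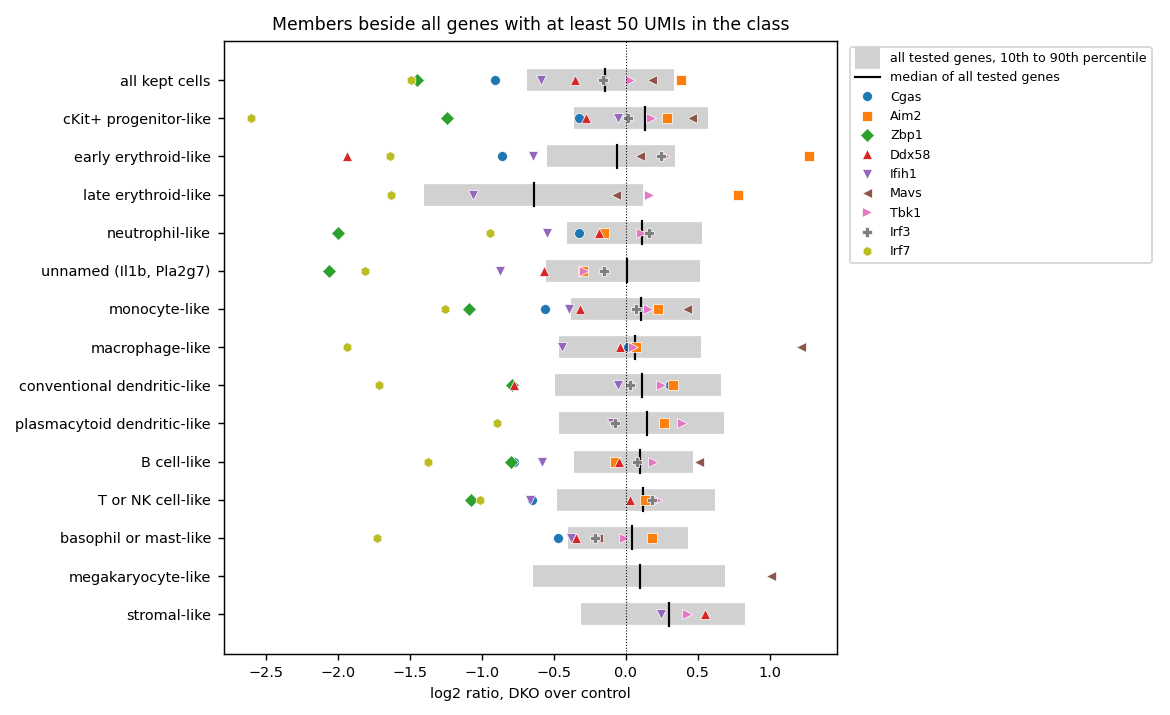
Log2 ratio of DKO over control (horizontal axis) of each member (coloured symbols) in all kept cells and in 14 classes, where the member had at least 50 UMIs over both libraries; grey bars span the 10th to the 90th percentile of all genes compared and black ticks mark their median. Irf7 lies left of the grey bar in every class where it is plotted, Zbp1 in all 7 of its classes, and Aim2 right of it in both erythroid classes.

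Irf7 (chr7:141262706-141266481, minus strand), the factor that amplifies the interferon response, was lower in all 12 classes compared, with log2 ratios from -2.60 to -0.89 and every interval below 0. In control cells it was highest in conventional dendritic-like cells, at 170.5 CPM (148 to 195), followed by plasmacytoid dendritic-like cells at 113 CPM (100 to 127), the Il1b-led cluster at 71.3 CPM (60.7 to 83.2) and monocyte-like cells at 39.7 CPM (36.0 to 43.6). The intervals of these 4 did not overlap between neighbours. In DKO cells the same classes stood at 51.2, 60.1, 20.1 and 16.5 CPM, and the 2 dendritic classes were no longer separated by counting error. The difference nearest to 0 was that of plasmacytoid dendritic-like cells, the main producers of type I interferon, at -0.89 (-1.32 to -0.52). Among the rarer expressers, cKit+ progenitor-like cells held 56 control and 4 DKO UMIs, at -2.60 (-4.82 to -1.46), where free RNA could bring up to 2.68 of the 3.76 CPM in control. Red cell precursors held many of its UMIs, with 28.2 and 9.06 CPM in early erythroid-like cells, at -1.64 (-1.89 to -1.39), and 27.5 and 8.84 CPM in late ones, at -1.63 (-1.82 to -1.45). Hemoglobin genes took 84.4% of control and 86.8% of DKO UMIs of the late class. Without them in the totals, late erythroid-like cells had the highest Irf7 level of the named classes in DKO. Conventional dendritic-like cells stayed highest in control. Stromal-like cells had 20.4 and 19.8 CPM from 15 and 8 UMIs, too few to compare. With finer clusters basophil or mast-like cells also held too few Irf7 UMIs to compare.

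Zbp1 (chr2:173206612-173218923, minus strand), the sensor of left-handed DNA and RNA, was lower in all 7 classes compared. With only barcodes above the order-of-magnitude threshold for cells, the ratio of B cell-like cells went from -0.80 to -0.48 (-1.29 to 0.29) and was no longer past the limit. Monocyte-like cells held more of its UMIs than any other class and went from 71.1 CPM (66.2 to 76.4) to 33.3 CPM (29.1 to 38.0), a log2 ratio of -1.09 (-1.32 to -0.88). Conventional dendritic-like cells, where it was highest in both libraries among the classes with 50 cells, stood at 94.8 and 54.3 CPM, at -0.79 (-1.30 to -0.33). The ratios furthest from 0 were in the Il1b-led cluster, from 38.1 to 8.89 CPM at -2.06 (-2.78 to -1.46), and in neutrophil-like cells, from 12.7 to 3.12 CPM at -1.9998 (-2.45 to -1.61). All 4 neutrophil-like clusters were lower, from the cluster led by Fcnb and Chil3 (17 and 1 UMIs) to the one led by Retnlg (26.5 and 7.17 CPM). T or NK cell-like cells went from 51.9 to 24.3 CPM, at -1.07 (-1.62 to -0.60). Macrophage-like cells, with 30 and 19 UMIs, missed the count limit at 17.4 and 19.5 CPM.

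**Figure D2:**
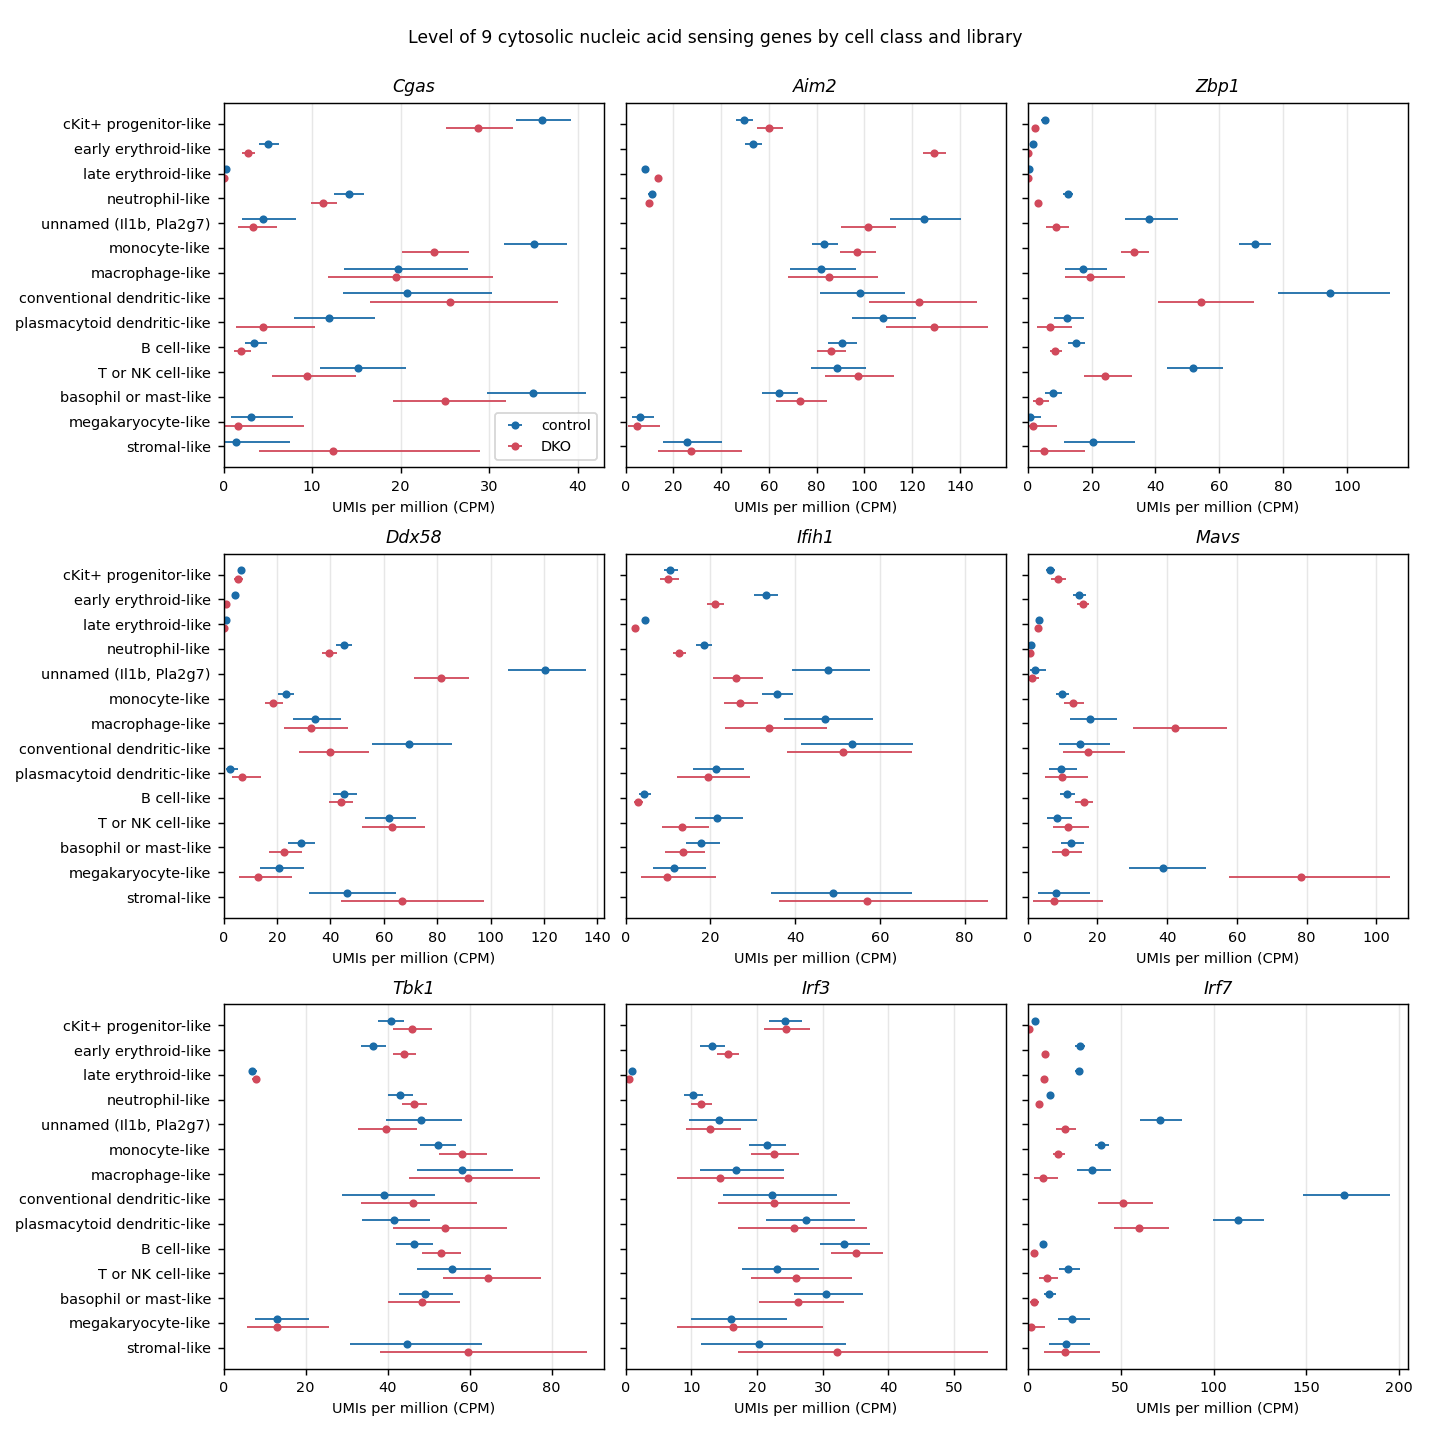
Level of 9 members in CPM (horizontal axes, each gene on its own scale) in 14 classes, control in blue and DKO in red; points are single libraries and bars 95% Poisson intervals. The red points of Irf7 and Zbp1 lie left of the blue ones in nearly all classes, and the early erythroid-like point of Aim2 lies far to the right. Those of Tbk1 and Irf3 lie within 1.5-fold of the blue ones in every class compared.

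Aim2 (chr1:173350879-173466040, plus strand), the DNA sensor of the inflammasome, went the other way, and only in red cell precursors past the limit. Early erythroid-like cells stood at 53.4 CPM (49.8 to 57.2) in control and 129 CPM (125 to 134) in DKO, from 827 and 2854 UMIs, a log2 ratio of 1.27 (1.16 to 1.39). In late erythroid-like cells the levels were 7.99 and 13.7 CPM, at 0.78 (0.56 to 1.004). The other 10 classes compared lay between -0.30 and 0.33. The lowest of these was the Il1b-led cluster, which had 125 CPM in control and 101.4 CPM in DKO, at -0.30 (-0.54 to -0.06). In control marrow that cluster, plasmacytoid dendritic-like cells (108 CPM), conventional dendritic-like cells (97.97 CPM) and B cell-like cells (90.6 CPM) formed the top of the order with overlapping neighbours. In DKO marrow the early erythroid-like class stood at the top, beside plasmacytoid dendritic-like cells at 129 CPM (109 to 152).

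A UMI of Aim2 was seen in 25.9% of 1943 control and 50.6% of 1836 DKO early erythroid-like cells, at median depths of 6555 and 10782 UMIs. With each cell thinned to 2000 UMIs the shares were 11.8% of 1488 and 21.8% of 1376 cells. Megakaryocyte-like cells, in which Aim2 was near its lowest, held a UMI in 2.3% and 1.94% of cells at median depths of 1250.5 and 861 UMIs. Free RNA in the droplets, estimated for the control library, could bring at most 4.74% of the UMIs of early erythroid-like cells and 2.12 of the 53.4 CPM. Within the class, the cluster led by Hemgn, Hist1h3c and Klf1 went from 54.2 to 130 CPM at 1.26 (1.12 to 1.41) and the one led by Pkhd1l1 and Sox6 from 80.0 to 183 CPM at 1.19 (1.006 to 1.38). The cluster led by Car1 and Mt2 did not share this, at 13.3 and 13.6 CPM from 35 and 39 UMIs, a log2 ratio of 0.02 (-0.67 to 0.73). In the late class, 1 cluster held 196 of 247 control UMIs and 482 of 510 DKO UMIs. It was led by Xpo7, Tmcc2 and Slfn14 and stood at 33.7 and 60.0 CPM. With finer clusters (Leiden resolution 2.0) the late class stood at 5.26 and 5.98 CPM, a ratio of 0.18 that was no longer past the limit, while the early class kept 1.24.

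**Figure D3:**
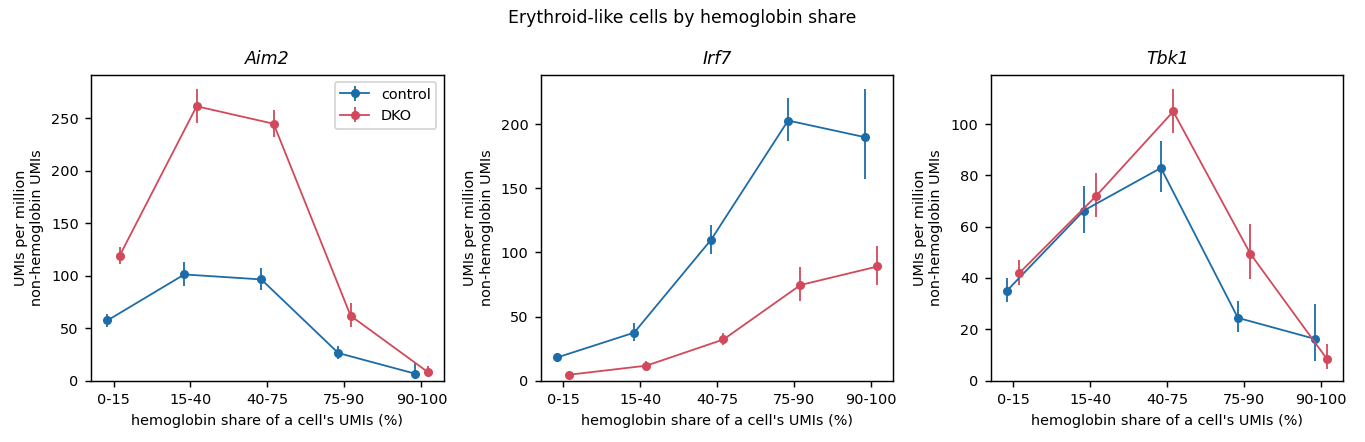
Aim2, Irf7 and Tbk1 in erythroid-like cells sorted by the hemoglobin share of a cell's UMIs (horizontal axes, in percent), as CPM of non-hemoglobin UMIs (vertical axes); control in blue and DKO in red, bars are 95% Poisson intervals of single libraries. Aim2 peaks between 15 and 75% hemoglobin and is higher in DKO up to 90%, Irf7 climbs toward high hemoglobin and is lower in DKO in all 5 bins, and Tbk1 is higher in DKO from 75 to 90% and lower above 90%, where it has 10 and 13 UMIs.

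Hemoglobin fills a growing share of the RNA as red cell precursors mature, which dilutes every other transcript. The erythroid-like cells were therefore also sorted by that share, with levels given as CPM of the UMIs that are not hemoglobin. Aim2 stood at 57.3 and 119 in cells under 15% hemoglobin, at 101.2 and 262 from 15 to 40%, and at 96.4 and 245 from 40 to 75%, in control and DKO. The log2 ratios were 1.05 (0.88 to 1.24), 1.37 (1.19 to 1.56) and 1.34 (1.17 to 1.52), with 1.23 (0.80 to 1.68) from 75 to 90%. Above 90% only 4 and 13 UMIs were left. Irf7 took another course, from 18.0 in control cells under 15% to 203 (187 to 220) in those from 75 to 90%, beside 4.56 and 74.6 in DKO. Its ratio ran from -1.95 (-2.59 to -1.41) in the lowest bin to -1.10 (-1.46 to -0.73) in the highest. Tbk1 had ratios of 0.26, 0.12 and 0.34 in the 3 lowest bins and 1.014 (0.55 to 1.49) from 75 to 90%, at levels of 24.5 and 49.5. Above 90%, on 10 and 13 UMIs, it had -1.004 (-2.28 to 0.38). From 75 to 90% the ratio of Tbk1 was near that of Aim2, which had 74 and 111 UMIs there beside 69 and 89 of Tbk1.

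The late erythroid-like class held 2 clusters led by Isg15, an interferon-induced gene, with 1293 and 879 control cells and 601 and 228 DKO cells. Irf7 stood at 44.7 and 38.1 CPM in them in control and at 22.7 and 31.9 CPM in DKO. In the late clusters led by hemoglobin genes or Tent5c it stood at 6.59 CPM or less in control. The clusters were drawn with interferon-induced genes in use, so these levels describe them and their sizes were not compared. The Irf7 ratio of the whole late class also moves with the mix of its clusters, which was not held equal. Outside those clusters, the cluster led by Xpo7 had 37.1 and 12.3 CPM, a ratio of -1.58 (-1.95 to -1.24).

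Cgas (chr9:78430526-78443237, minus strand) was highest in progenitor-like and myeloid classes. In control marrow cKit+ progenitor-like cells at 36.0 CPM (33.0 to 39.2), monocyte-like cells at 35.1 CPM (31.7 to 38.8) and basophil or mast-like cells at 34.99 CPM (29.7 to 40.9) were not separated by counting error. With finer clusters the basophil or mast-like class was smaller and held too few Cgas UMIs to compare. Within the neutrophil-like class the cluster led by Fcnb and Chil3, genes of immature neutrophils, had 35.8 CPM, whereas the clusters led by Ltf, Mmp8 and Retnlg had 7.29, 2.12 and 1.10 CPM. Late erythroid-like cells had 0.291 CPM, from 9 UMIs in 5903 cells, no more than the 0.402 CPM that free RNA could bring. In DKO these 3 classes stood at 28.7, 23.7 and 25.0 CPM, none past the limit, with ratios of -0.32, -0.56 and -0.47. Conventional dendritic-like cells came second there, at 20.7 CPM in control and 25.6 CPM in DKO, 0.31 (-0.55 to 1.16). Early erythroid-like cells, with 78 and 61 UMIs, were lower at -0.86 (-1.37 to -0.36). B cell-like cells, at -0.78 (-1.73 to 0.07), and T or NK cell-like cells, at -0.65 (-1.61 to 0.15), were lower with intervals that reached above 0, and the first stood at -0.54 with only barcodes above the order-of-magnitude threshold, the second at -0.56 with doublets kept in.

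Trex1 (chr9:109057933-109059734, minus strand) had 1 UMI in the control library and 0 in DKO, which allows up to 0.0321 CPM there by the Poisson limit. All of its 1147 exonic bases lie inside exons of Atrip on the same strand, so a read from one cannot be told from a read of the other. Atrip itself had 672 and 491 UMIs. The count therefore does not measure Trex1. Of the other members, Irf3 shares 88 exonic bases with Bcl2l12, Irf7 45 with Phrf1 and Cgas 201 with the pseudogene Gm8093, each on the opposite strand, and how strand was used in counting is not given in the sources used here.

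The RNA sensors Ddx58 and Ifih1 share a promoter feature. RefSeq promoters (GRCm38.p6, 250 bases before to 50 after the start site) were found for 9 of the 10 members and searched on both strands for the core of the interferon-stimulated response element (ISRE), to which interferon-activated factors bind, as the letters GAAA, any 2 bases and GAAA again. It was found in these 2 genes and in no other member of the 9, and 3.44% of all 32851 RefSeq promoters hold it. The 30 bases around each match are shown because no other member had a match. They run 5′ to 3′ on the gene's strand, with the match in capitals, which for Ddx58 reads on the opposite strand.
Ddx58, chr4:40239804-40239833, minus strand: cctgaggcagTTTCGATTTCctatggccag
Ifih1, chr2:62646206-62646235, minus strand: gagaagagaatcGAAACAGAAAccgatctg
The NF-kB core (GGG, any 2 bases, TTCC) and the GAS core bound by STAT dimers (TTC, any 3 bases, GAA), found in 5.82% and 8.30% of all promoters, had no match in the 9 members. The ISRE match starts 2 bases after the start site in Ddx58 and 32 bases after it in Ifih1. A match describes the letters in this window and shows no binding.

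Ddx58 (chr4:40203773-40239828, minus strand) was at its highest in the Il1b-led cluster, with 120.4 CPM (107 to 136) in control and 81.3 CPM (71.5 to 92.1) in DKO. The ratio was -0.57 (-0.82 to -0.31), within the limit. Past it were conventional dendritic-like cells, from 69.3 to 39.9 CPM at -0.77 (-1.38 to -0.23), and early erythroid-like cells, from 4.26 to 1.09 CPM at -1.93 (-2.71 to -1.28) on 66 and 24 UMIs. Neutrophil-like cells, with the most UMIs, had 45.1 and 39.5 CPM. B cell-like cells at -0.05 and T or NK cell-like cells at 0.03 had intervals that held 0.

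Ifih1 (chr2:62595798-62646255, minus strand) was highest in conventional dendritic-like cells in control, at 53.4 CPM, followed by stromal-like cells (48.9 CPM), the Il1b-led cluster (47.8 CPM) and macrophage-like cells (47.0 CPM), and in stromal-like cells in DKO, at 57.0 CPM. Early erythroid-like cells, with the most UMIs, came sixth in both libraries, with 33.1 CPM in control and 21.1 CPM in DKO, a ratio of -0.65 (-0.83 to -0.46). Without hemoglobin genes in the totals it was -0.56 and no longer past the limit. Late erythroid-like cells stood at 4.56 and 2.18 CPM, at -1.06 (-1.48 to -0.66), where the median of all genes was -0.64, and relative to that median at -0.42, within the limit. Along hemoglobin content its ratio went from -0.31 (-0.61 to -0.02) under 15% to -0.93 (-1.22 to -0.65) from 40 to 75%, on that same scale. The Il1b-led cluster went from 47.8 to 26.0 CPM at -0.87 (-1.32 to -0.45). T or NK cell-like cells, with 58 and 24 UMIs, were lower at -0.67 (-1.45 to 0.01), but stood at -0.09 (-1.16 to 0.84) with only barcodes above the order-of-magnitude threshold. In plasmacytoid dendritic-like cells 1 DKO cell held 15 of the 22 UMIs. The ratio there was -0.10 with this cell and -1.50 (-3.05 to -0.51) without the richest cell of each library.

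Mavs (chr2:131234063-131248025, plus strand), the adaptor of both RNA sensors, had 7.33 and 8.31 CPM over all cells. It was highest in megakaryocyte-like cells, at 38.9 CPM (29.0 to 51.2) in control and 78.4 CPM (57.8 to 104) in DKO, a ratio of 1.0102 (0.41 to 1.61). Only 31 control and 8 DKO cells of that class held its 51 and 48 UMIs, and a single DKO cell held 18. Macrophage-like cells followed with 18.0 and 42.1 CPM, at 1.22 (0.52 to 1.95) on 31 and 41 UMIs. Of the 6 other classes compared, none was past the limit, and B cell-like cells were nearest at 11.3 and 16.0 CPM, 0.51 (0.14 to 0.89). In the empty droplets of the control library Mavs stood at 14.0 CPM, above its level over all control cells. Free RNA could bring at most 0.571 of the 38.9 CPM in megakaryocyte-like and 1.62 of the 18.0 CPM in macrophage-like control cells.

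Tbk1 (chr10:121546455-121586787, minus strand), the kinase on which both routes meet, was even across classes. It lay between 36.4 and 58.0 CPM in 12 control classes, at 12.98 CPM in megakaryocyte-like and 7.05 CPM in late erythroid-like cells. None of its 13 classes passed the limit, with ratios from -0.29 to 0.43. In late erythroid-like cells its ratio of 0.16 became 0.80 (0.54 to 1.06), past the limit, when taken relative to the all-gene median of -0.64. The 2 intervals that lay above 0 were those of early erythroid-like cells, at 36.4 and 44.1 CPM and 0.27 (0.12 to 0.43), and of B cell-like cells at 0.19. Irf3 (chr7:44997648-45002848, plus strand), the factor that TBK1 phosphorylates, was likewise within the limit in all 10 classes compared, from -0.21 to 0.24, and every interval held 0. B cell-like cells had the highest level in both libraries, with 33.2 CPM (29.6 to 37.2) and 35.03 CPM (31.3 to 39.1). With finer clusters the smaller basophil or mast-like class had 27.0 and 42.4 CPM of Irf3, the highest named class in DKO. Its ratio was then 0.63 (-0.19 to 1.52), past the limit with an interval that held 0.

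**Figure D4:**
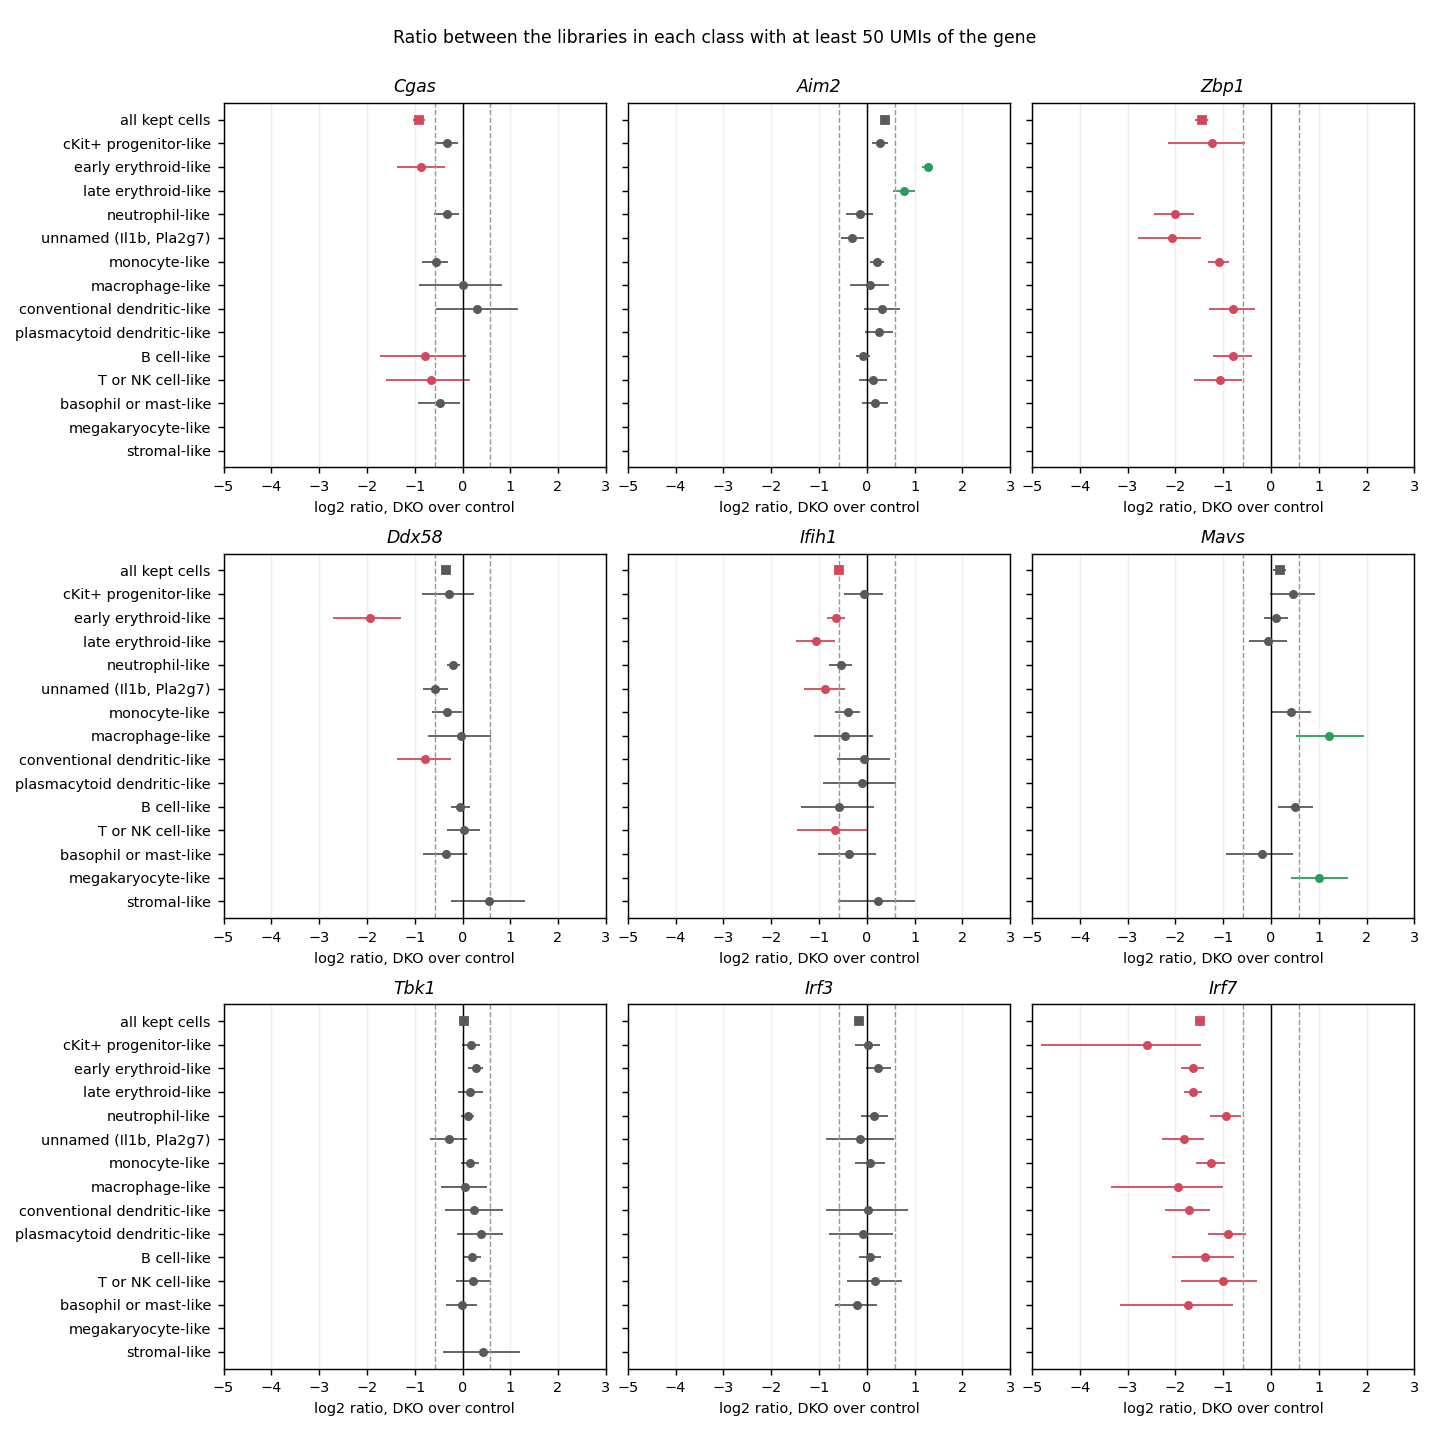
Log2 ratio of DKO over control (horizontal axes) of 9 members in all kept cells (squares) and in each class where both libraries together held at least 50 UMIs of the gene (circles), with 95% exact conditional binomial intervals; dashed lines mark 1.5-fold, red is lower, green is higher and grey is neither. Irf7 and Zbp1 are red wherever compared, Aim2 is green in the 2 erythroid-like classes, Mavs in megakaryocyte-like and macrophage-like cells, and Tbk1 and Irf3 are grey throughout.

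The other genes of the pathway were counted from 9 lists by role, 98 genes of which 97 are in the tables. Over all kept cells 90 were compared, 20 were lower and 1 was higher, with a median log2 ratio of -0.18 beside -0.14 for all genes, of which 14.6% were lower and 3.8% higher. Among the 20 is Ddx41, itself a target of the DKO. Within classes 15 of 69 were lower and 2 higher in early erythroid-like cells, beside 8.73% and 2.71% of all genes. Late erythroid-like cells had 23 of 48 and 1, beside 53.2% and 1.94%. Neutrophil-like cells had 9 of 80 and 6, beside 5.21% and 7.68%, and monocyte-like cells 7 of 83 and 7, beside 3.97% and 6.82%. Macrophage-like cells had 8 of 59 and 5, beside 6.46% and 7.7%, and B cell-like cells 7 of 77 and 0, beside 3.79% and 4.46%. Plasmacytoid dendritic-like cells had 3 of 57 and 6, beside 5.88% and 14.6%, and T or NK cell-like cells 3 of 60 and 4, beside 6.24% and 11.6%. The list with the most lower genes was that of double-stranded RNA effectors, with 6 of 8 lower and a median of -1.27. Oas1a and Oas2, members of the oligoadenylate synthetase family, went from 6.98 to 1.21 CPM at -2.52 (-2.80 to -2.27) and from 6.68 to 2.11 CPM at -1.66 (-1.88 to -1.46). The list had 5 of 6 lower in early erythroid-like cells (8.73% of all genes), 3 of 4 in late erythroid-like (53.2%), 5 of 7 in neutrophil-like (5.21%), 5 of 7 in monocyte-like (3.97%), 3 of 4 in macrophage-like (6.46%), 3 of 5 in B cell-like (3.79%), 1 of 3 in T or NK cell-like (6.24%) and 0 of 3 in plasmacytoid dendritic-like cells (5.88%).

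The counts by role over all cells stand beside 14.6% of all genes lower, so that 1 of 11 or 1 of 12 is no more than that share. Of the 10 partners of AIM2 and ZBP1, 5 were lower and 1 was higher. Pycard, the inflammasome adaptor, went from 133 to 69.9 CPM at -0.93 (-0.97 to -0.89), and Il18, an inflammasome substrate, from 9.07 to 4.53 CPM at -1.0003 (-1.16 to -0.85). In early erythroid-like cells, where Aim2 was higher, Pycard stood at 32.4 and 17.3 CPM, at -0.90. The 12 kinases and adaptors were all within the limit over all cells. Among those with at least 200 UMIs, Traf3 was furthest at 0.36 and Ikbkg next at -0.18. On the RIG-I-like receptor list 1 of 11 was lower, the regulator Dhx58 (LGP2) at -0.90 (-1.04 to -0.75), while Rnf135 had -0.44. The cGAS-STING list had 4 of 11 lower, among them Ddx41, itself a target of the DKO. Furthest among those with at least 200 UMIs were Ddx41 and the DNA-binding Ifi204 at -0.69 (-0.79 to -0.59). Among the interferon regulatory and NF-kB factors 1 of 12 was lower, Irf8 at -0.79 (-0.82 to -0.76), with Irf9 at -0.49. Nucleic acid clearance had 1 of 12 lower, Dnase1l3 at -0.87 on 182 and 96 UMIs, with Rnaseh2c at -0.45. Endosomal sensors had 1 of 11 lower, and the 2 named by the rule, Unc93b1 at -0.42 and Tlr7 at -0.41, were within the limit. Of the interferon list Ifnar2 had -0.36 and Ifnar1 -0.05, Ifnb1 had 0 and 2 UMIs, and Ifna1, Ifna2, Ifna4, Ifnl2 and Ifnl3 had none in either library.

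**Figure D5:**
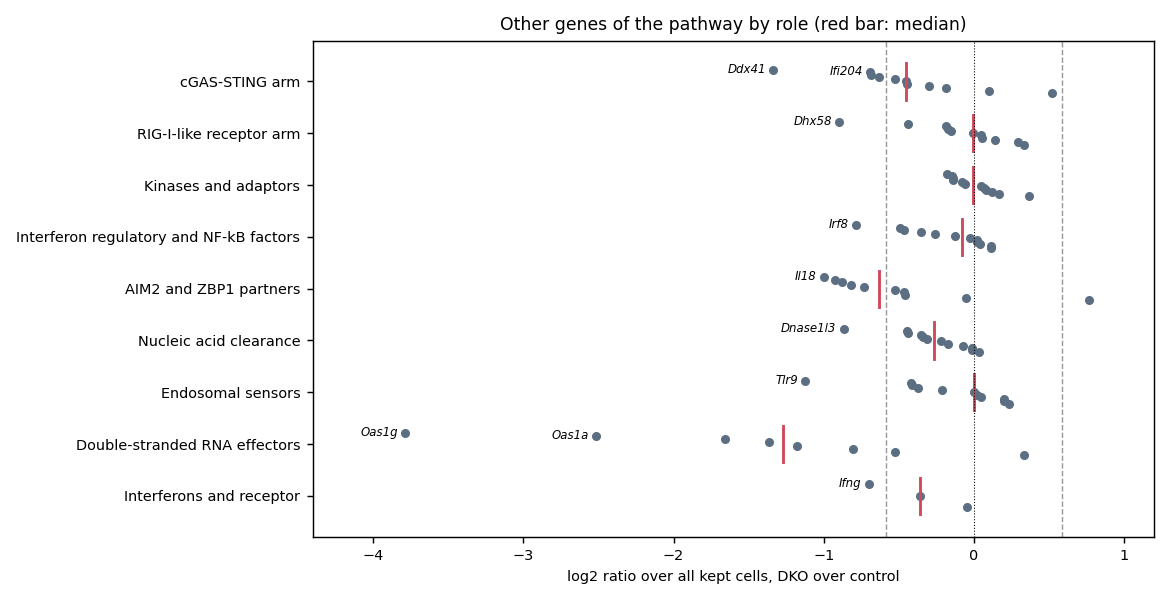
Log2 ratio over all kept cells of DKO over control (horizontal axis) for the 90 other pathway genes with at least 50 UMIs, 1 point per gene, by role; red bars are list medians and dashed lines mark 1.5-fold. The double-stranded RNA effectors and the AIM2 and ZBP1 partners have the lowest medians, and the kinases and adaptors stay between the dashed lines.

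The highest of the 13 named classes was the same in both libraries for Cgas, Zbp1, Mavs and Irf3 and another for Aim2, Ddx58, Ifih1, Tbk1 and Irf7. This depended on the processing. Without hemoglobin genes in the totals, Ifih1 was highest in stromal-like and Tbk1 in macrophage-like cells in both libraries. With only barcodes above the order-of-magnitude threshold, which left 10 classes, the highest class moved in 7 cases and stayed in 11. With finer clusters 1 case moved, that of Irf3 in DKO. The correlation of a member's log2(CPM + 5) between the libraries over 13 classes, which share the library and its depth, ran from 0.852 for Cgas and 0.893 for Irf7 to 0.988 for Tbk1. The genes whose control pattern over these classes was most like a member's, among 6917 or 6918 searched, are given as a description. They were Glipr1 (0.9496), Tiam1 (0.903) and Spn (0.895) for Cgas, Ly6e (0.927), Itga4 (0.925) and Map3k1 (0.924) for Aim2, and Rara (0.914), Parp14 (0.906) and Samhd1 (0.881) for Zbp1. Ddx58 was most like Dusp6 (0.870), Junb (0.848) and Itgav (0.834), Ifih1 like Pacs2 (0.900), Znfx1 (0.846) and Ap2a2 (0.827), and Mavs like Vmp1 (0.875), Cyb5r3 (0.870) and Dok1 (0.862). Tbk1 was most like Casc3 (0.960), Taf3 (0.954) and Nr3c1 (0.952), Irf3 like Vps72 (0.979), Mrps9 (0.978) and Matr3 (0.973), and Irf7 like Cd209a (0.859), Ctnnd2 (0.832) and P2ry6 (0.802). In the DKO library these correlations lay between 0.696 and 0.965.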

How the data were processed

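Bone marrow RNA of control and DKO mice was captured with Chromium Single Cell 3' v3 chemistry, 1 library per genotype. The authors ran Cell Ranger (version 7.1.0 per the file headers, genome build mm10 per the submitters' processing notes), and the deposited values are unnormalized UMI counts of 32285 genes. The control table lists every barcode and the DKO table called cells. Whether intronic reads were counted is not given in the sources used here. Barcodes of the control library passed as cells by an order-of-magnitude threshold (4869 UMIs) or a multinomial test from 500 UMIs up (10000 simulations, false discovery rate 0.01), leaving 19199 beside 14142 listed DKO cells. Cells above 20% mitochondrial UMIs (171 and 215) and Scrublet doublets (406, 2.13%, and 198, 1.42%) were left out. Clustering (scanpy 1.11.5, 2000 variable genes without the members, 30 components, 15 neighbors, Leiden resolution 1.0) gave 33 clusters, named from marker lists. Plasma cell-like cells (39 in control) were not compared.

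Sums per class and library gave CPM with exact Poisson intervals, shares with exact Clopper-Pearson intervals and log2 ratios with exact conditional binomial intervals, checked on simulated counts. Gene positions came from GENCODE M21 (GRCm38), which holds 32235 of the 32285 identifiers. Named were all members, Ddx41, for each member the 3 genes most like it over control classes (at least 50 CPM in 1 class), and from each role list the 2 with the largest ratio (at least 200 UMIs). Other genes named (such as Atrip) were picked with their values known. Members and lists were chosen with earlier results of these data known.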

Additional observations from a re-analysis of the deposited data

Results flagged for a closer look

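Aim2 was flagged because its difference between the libraries pointed in opposite directions in different classes, each interval lying on 1 side of 0. Early erythroid-like cells had a log2 ratio of DKO over control of 1.27 (1.16 to 1.39) and late erythroid-like cells one of 0.78 (0.56 to 1.004). The Il1b-led cluster had -0.30 (-0.54 to -0.06). With 1 library per genotype, the difference between classes was not tested, and the intervals cover counting error only.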

How the results depend on the processing

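Leaving hemoglobin genes out of the totals moved the median of all genes by 0.17 on the log2 scale. Over all kept cells the log2 ratios were then -0.74 for Cgas, 0.55 for Aim2, -1.28 for Zbp1, -0.19 for Ddx58, -0.42 for Ifih1, 0.35 for Mavs, 0.20 for Tbk1, 0.0076 for Irf3 and -1.32 for Irf7. Setting that median to 0 gave -0.77, 0.53, -1.31, -0.21, -0.44, 0.32, 0.17, -0.017 and -1.35 in the same order. Holding the mix of classes equal gave -0.44 for Cgas, 0.47 for Aim2, -1.11 for Zbp1, -0.26 for Ddx58, -0.53 for Ifih1, 0.16 for Tbk1 and 0.065 for Irf3, and keeping only barcodes above the order-of-magnitude threshold gave 0.44 for Aim2 and -0.61 for Ddx58. Past 2-fold, 2 members were lower over all cells and 17 pairs of a member and a class were lower. The share of all genes past 2-fold was not computed. With at least 100 UMIs, or with only barcodes above that threshold, which left 10 classes, 2 pairs were higher, both Aim2 in erythroid-like cells. Irf7 and Zbp1 stayed past the limit over all cells in each of these. Among single classes, with the clusters kept, the call changed 15 times, 10 of them for Ifih1, and the cause was not tested. Leaving out the richest cell, an alternative chosen after seeing the data, gave 30 lower and 4 higher pairs. No paired analysis was possible because each genotype had 1 library and the labels carry no shared replicate numbers. Depth limited the comparison of members with fewer than 50 UMIs in a class.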

Other observations

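Plasma cell-like cells, 39 in control and 53 in DKO and so below the 50 cells required for a comparison, held 46 and 76 Zbp1 UMIs, at 61.5 CPM (45.0 to 81.996) and 85.5 CPM (67.3 to 107). They were the named cells in which the Zbp1 level was higher in the DKO library, by a log2 ratio of 0.46 (-0.07 to 1.04), along with macrophage-like and megakaryocyte-like cells, whose 49 and 2 UMIs over both libraries were also too few to compare. The 2 monocyte-like clusters differed in what they held. The one led by Fn1, S100a4 and Vcan had 104 CPM of Zbp1 and 24.0 CPM of Cgas in control, and the one led by Fn1, Plcb1 and Klf4 had 29.7 CPM of Zbp1 and 49.0 CPM of Cgas. The 3 largest B cell-like clusters had 47.6 CPM of Aim2 in the one led by Vpreb1 and Igll1, 80.8 CPM in the one led by Iglc1 and Vpreb3 and 127 CPM in the one led by Ighd, and 52.7, 75.9 and 126 CPM in DKO, with no interval of the ratio away from 0.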
